A study of Mus musculus with 12 samples.

Results

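The renin-angiotensin system was followed through 7 genes in bulk RNA sequencing of mouse kidney: Ren1, Agt, Ace, Agtr1a, Enpep, Mme and Anpep. They were chosen by name as rows of the deposited count table, all 7 were found among its 56748 genes, and all 7 were among the 16947 genes that passed the filter on low counts. The kidneys came from wild-type C57bl/6 mice, all given cisplatin, a platinum drug that injures the kidney tubule. Beside cisplatin, the pFUS_UC kidneys had pulsed focused ultrasound and mesenchymal stem cells from umbilical cord, the UC kidneys had these cells without ultrasound, and the AKI kidneys had neither, with 4 samples in each of the 3 groups. The labels call the cells primary and name neither their donor nor their dose; the ultrasound setting, the time of sampling and the sex and age of the mice are likewise not stated there. Neither uninjured kidneys nor kidneys given only ultrasound were among the groups, so the comparisons are pFUS_UC and UC against AKI, and pFUS_UC against UC. The series set out to learn which pathways in the injured kidney differ when ultrasound and stem cells are combined. The labels do not say that replicates came from separate animals, so p-values measure the spread between these samples.

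Renin, an aspartic protease secreted by juxtaglomerular cells of the afferent arteriole, cuts angiotensinogen (Agt) to release angiotensin I. Angiotensin-converting enzyme (Ace), a zinc peptidase with a pair of catalytic domains, trims angiotensin I to angiotensin II, which acts through the type 1 receptor encoded by Agtr1a in mouse kidney vessels, mesangium, interstitium and tubule. Aminopeptidase A (Enpep) and aminopeptidase N (Anpep) remove residues from the front of the angiotensin peptides in turn, and neprilysin (Mme) cuts angiotensin I into a shorter vasodilator peptide. These 3 peptidases are abundant on the brush border of the proximal tubule, which also makes angiotensinogen.

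The catalytic and substrate sites are printed because they set the members' roles apart. They were read from GENCODE M21 coding sequence, 5′ to 3′. In renin, capitals mark the codon of the catalytic aspartate in each of the 2 sites found. In Agt they mark the codons of angiotensin II at the front of those of angiotensin I. In the zinc peptidases they mark the codons of the histidine-glutamate pair and of the histidine that follows them, which form the active site.
Ren1 site 1: GACacgggttca
Ren1 site 2: GACactggttca
Agt angiotensin I: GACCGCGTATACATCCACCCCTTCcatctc
Ace zinc site 1: CACGAGatgggcCAC
Ace zinc site 2: CACGAAatgggcCAC
Enpep zinc site: CACGAActtgtaCAC
Mme zinc site: CATGAAatcacaCAT
Anpep zinc site: CACGAGctggccCAT
The 2 Ace sites lie at codons 395 to 399 and 993 to 997 of 1312. The single sites of Enpep, Mme and Anpep lie at codons 385 to 389 of 945, 584 to 588 of 750 and 387 to 391 of 966.

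Promoters are shown for the members that were lower in UC than in AKI and have an entry in the RefSeq promoter table of build GRCm38.p6; each holds 250 bases before and 50 after the annotated start. That table has no entry for Agtr1a, and of its 2 entries for Ace the first is printed; the second holds a CCAAT match at -25 on the other strand. Capitals mark matches to TATAAA, the TATA box, and to CCAAT, both searched on each strand, so that a match on the other strand appears as its reverse complement.
Ren1 promoter, chr1:133350424-133350723, plus strand: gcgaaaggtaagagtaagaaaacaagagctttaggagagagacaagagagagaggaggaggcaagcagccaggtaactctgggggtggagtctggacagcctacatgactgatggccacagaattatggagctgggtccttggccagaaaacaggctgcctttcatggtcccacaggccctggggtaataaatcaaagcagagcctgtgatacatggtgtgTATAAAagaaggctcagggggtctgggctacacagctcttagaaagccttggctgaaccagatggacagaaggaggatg
Ace promoter, chr11:105967698-105967997, plus strand: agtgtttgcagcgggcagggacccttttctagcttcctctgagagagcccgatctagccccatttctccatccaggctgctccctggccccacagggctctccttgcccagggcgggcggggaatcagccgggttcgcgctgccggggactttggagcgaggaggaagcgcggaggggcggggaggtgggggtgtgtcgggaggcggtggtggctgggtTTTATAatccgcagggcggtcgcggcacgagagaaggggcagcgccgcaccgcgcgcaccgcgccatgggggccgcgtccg
Enpep promoter, chr3:129332700-129332999, minus strand: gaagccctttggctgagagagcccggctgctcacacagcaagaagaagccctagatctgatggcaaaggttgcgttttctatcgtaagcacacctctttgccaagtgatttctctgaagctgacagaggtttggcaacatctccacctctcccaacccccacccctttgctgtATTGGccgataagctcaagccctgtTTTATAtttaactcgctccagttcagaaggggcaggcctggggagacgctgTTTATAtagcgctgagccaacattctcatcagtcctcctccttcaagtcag
Anpep promoter, chr7:79848161-79848460, minus strand: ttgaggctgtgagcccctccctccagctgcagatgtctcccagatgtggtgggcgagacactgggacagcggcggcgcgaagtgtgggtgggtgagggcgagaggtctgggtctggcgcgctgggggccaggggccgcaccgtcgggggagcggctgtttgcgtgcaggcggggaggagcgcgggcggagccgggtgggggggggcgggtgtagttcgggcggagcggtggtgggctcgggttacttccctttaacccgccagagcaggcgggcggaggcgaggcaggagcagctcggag
TATAAA was found at -29 from the start of Ren1 on the coding strand and at -31 in Ace on the other strand. Enpep had it at -52 and -1 on the other strand, with a CCAAT match at -77. The Anpep window held neither motif. Of the members not shown, Agt held TATAAA at -30 on the coding strand and Mme held CCAAT matches in its entries 2 and 3. Neither Agt nor Mme passed in any comparison. Of all 32851 promoter windows, 13.6% hold TATAAA and 37.4% hold CCAAT. These matches describe the letters of the windows and were not tested. TGACG and TGGGAA, present in 20.8% and 25.6% of windows, were found in none of the members' windows.

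Library totals were 18.5 to 25.2 M (mega) counts in pFUS_UC, 18.4 to 21.3 M in UC and 17.3 to 23.5 M in AKI. The members' raw counts ran from 329 (Agtr1a in a UC library) to 13648 (Ace in an AKI library). Mitochondrially encoded genes took 7.38% to 15.3% of counts in pFUS_UC and 8.57% to 18.6% in UC, against 2.87% to 7.12% in AKI. Levels relative to the mean of all libraries correlated with gene length at -0.15 in pFUS_UC and -0.17 in UC, against 0.23 in AKI (mean Spearman coefficient within a library, over 14172 protein-coding genes, which are not independent). AKI libraries also carry sample codes of another form than those of UC and pFUS_UC, so any difference in handling cannot be told apart from that between AKI and the other groups.

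In AKI kidneys Agt, Ace and Anpep were the most abundant members per kilobase and Agtr1a the least, and this held for the group means in pFUS_UC and UC as well. Levels in this paragraph are the deposited FPKM (fragments per kilobase of listed gene length and per mega of a scaled library size), given as mean ± SD of 4 libraries. That library size differed from the plain library total. In pFUS_UC the order was Agt at 73.8 ± 24.7, Ace at 49.3 ± 13.9, Anpep at 48.1 ± 7.12, Ren1 at 42.0 ± 13.2, Mme at 20.7 ± 3.14, Enpep at 14.8 ± 3.27 and Agtr1a at 8.18 ± 0.607 FPKM. In UC it was Agt at 93.7 ± 29.96, Ace at 44.1 ± 3.87, Anpep at 43.0 ± 11.2, Ren1 at 21.5 ± 9.96, Mme at 15.8 ± 3.17, Enpep at 12.2 ± 2.65 and Agtr1a at 7.16 ± 1.38 FPKM. In AKI it was Agt at 82.2 ± 14.2, Ace at 72.4 ± 28.7, Anpep at 69.2 ± 12.5, Ren1 at 49.2 ± 15.4, Enpep at 28.8 ± 3.70, Mme at 19.7 ± 2.80 and Agtr1a at 16.2 ± 1.64 FPKM. Enpep thus stood above Mme in all 4 AKI libraries and below it in all 4 libraries of pFUS_UC and of UC. Ace and Anpep could not be ordered beyond their spread: Ace was the higher in 3 libraries of pFUS_UC, 3 of UC and 1 of AKI. Nor could Anpep and Ren1 in pFUS_UC, where Anpep was the higher in 2 of 4. The length listed for Mme, 11542 bases, is the longest of the 7 and lowers its FPKM. Agt supplied 39.3% ± 10.4 of the members' summed FPKM in UC, where it ranged from 30.9% to 52.5%, against 24.5% ± 2.44 in AKI, with 22.7% to 28.0%, so these groups did not overlap. In pFUS_UC the share was 28.2% ± 5.59. A share also depends on the other members, and the level of Agt itself overlapped between UC and AKI. The shares of Agtr1a (2.51% to 3.75% in UC, 4.12% to 5.82% in AKI) and Enpep (4.69% to 6.03% and 6.58% to 10.8%) were lower in UC without overlap. In pFUS_UC the Agtr1a share, 2.57% to 3.91%, also lay below AKI, and that of Enpep, 3.68% to 8.63%, overlapped AKI.

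**Figure D1:**
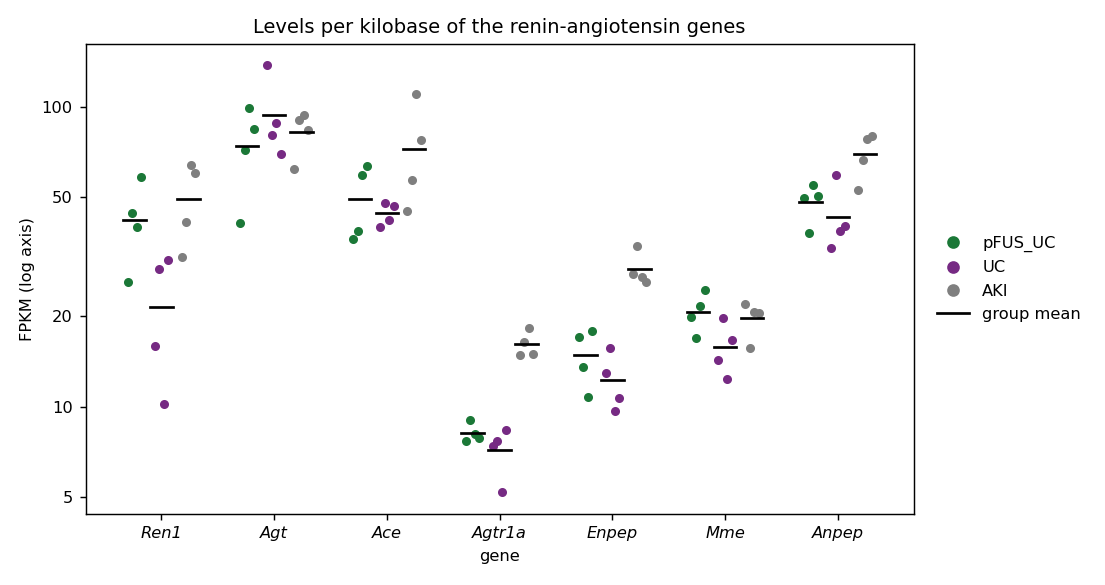
FPKM of each member in every library on a log axis, with pFUS_UC left, UC in the middle and AKI right within each gene; points are libraries and bars group means. By group mean Agt lies at the top and Agtr1a at the bottom, and Enpep averages 14.8 in pFUS_UC and 12.2 in UC, below Mme, against 28.8 in AKI, above it.

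In UC kidneys 5 of the 7 members fell relative to AKI: Agtr1a, Enpep, Ren1, Anpep and Ace. In pFUS_UC kidneys 3 fell, Agtr1a, Enpep and Anpep, and no member rose in either comparison. A call is a Benjamini-Hochberg adjusted p under 0.05 from edgeR's quasi-likelihood test over all 16947 tested genes. Among all tested genes 24.3% were called lower and 24.1% higher in UC against AKI, and 22.1% lower and 21.9% higher in pFUS_UC against AKI, so the members' counts stand against a background of about equal losses and gains. The members' median log2 fold change was -0.51 in pFUS_UC against AKI and -0.70 in UC against AKI, beside 0.02 and 0.03 over all tested genes. Both comparisons share the 4 AKI libraries and are not independent of each other. In bulk tissue, fewer cells of a type and less RNA per cell cannot be told apart.

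**Figure D2:**
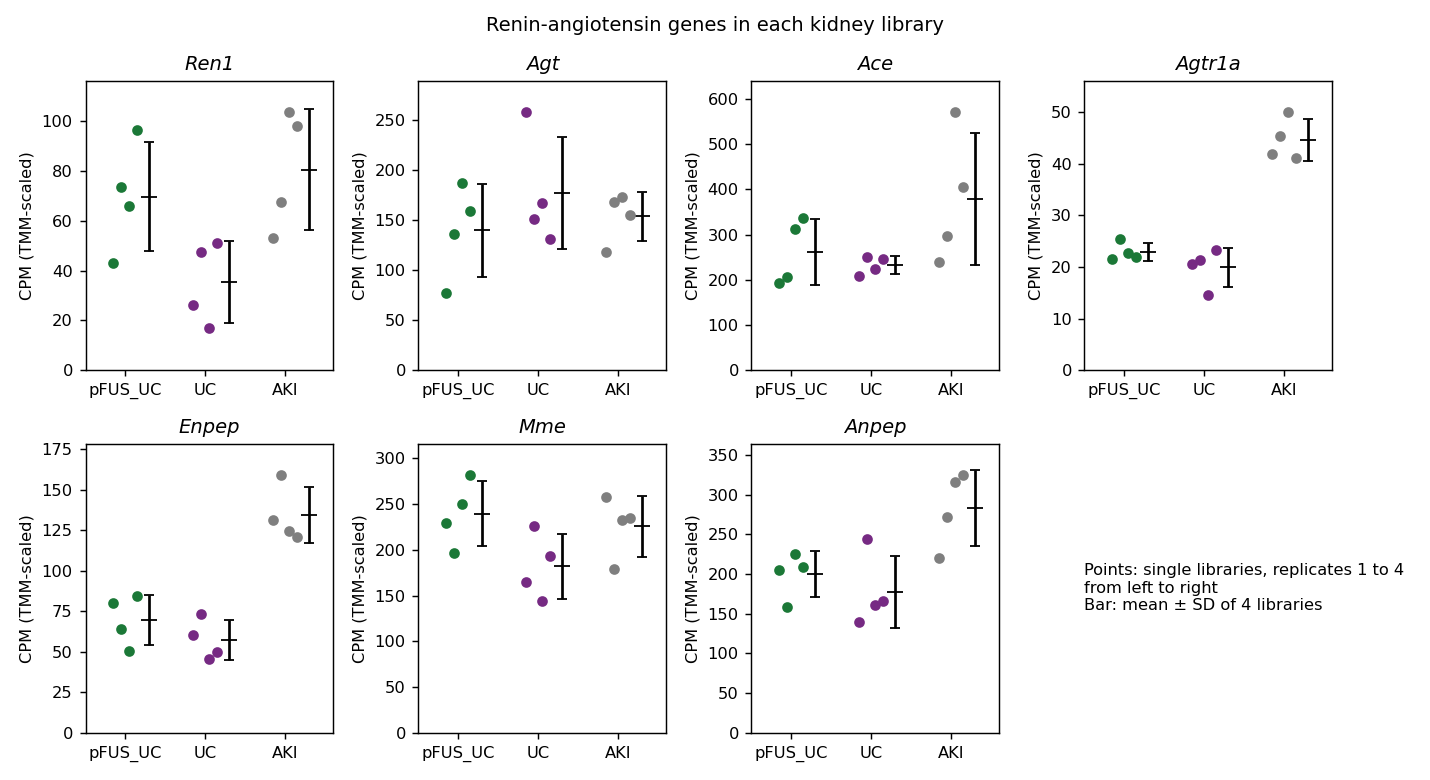
CPM (counts per mega of library total, scaled by TMM) of the 7 members in each library, with pFUS_UC left, UC in the middle and AKI right; points are libraries and bars the mean ± SD of 4. Agtr1a and Enpep in pFUS_UC and UC lie wholly below AKI, Ren1 is lowest in UC, and Agt and Mme overlap between groups.

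Renin is the enzyme that starts the cascade, and its gene, Ren1 (ENSMUSG00000070645, chr1:133278248-133288063 on the plus strand of GRCm39), was low in UC and close to AKI in pFUS_UC. Ren1 had 43.2, 73.5, 65.9 and 96.4 CPM in pFUS_UC replicates 1 to 4, 26.4, 47.5, 17.1 and 51.0 CPM in UC, and 53.0, 67.8, 104 and 98.1 CPM in AKI. All 4 UC libraries lay below all 4 AKI libraries, the gap between the nearest being small (51.0 against 53.0 CPM), while the pFUS_UC libraries overlapped both other groups. In UC against AKI the log2 fold change was -1.18 (SE 0.34, adjusted p = 0.0107 by edgeR), 2.27-fold lower, and the call held in all 19 alternatives, with log2 fold changes of -1.44 to -0.95. In pFUS_UC against AKI it was -0.21 (SE 0.33, adjusted p = 0.629 by edgeR).

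Angiotensinogen, the substrate (Agt, ENSMUSG00000031980, chr8:125283273-125296445 on the minus strand), did not pass in any comparison. Agt had 77.5, 136, 187 and 159.7 CPM in pFUS_UC, 258, 151, 168 and 131 CPM in UC, and 119, 168, 173 and 156 CPM in AKI. A single library of pFUS_UC (replicate 1) was the lowest and one of UC (replicate 1) the highest of the 12, and the groups overlapped. The log2 fold change was -0.14 (SE 0.25, adjusted p = 0.686 by edgeR) in pFUS_UC against AKI and 0.20 (SE 0.25, adjusted p = 0.533) in UC against AKI. Its sign turned when either of those extreme libraries was left out, to 0.06 in pFUS_UC and -0.04 in UC.

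Ace (ENSMUSG00000020681, chr11:105858771-105880790 on the plus strand), which forms angiotensin II, was lower in UC than in AKI, with 1 AKI library far above the rest. Ace had 192, 205, 313 and 336 CPM in pFUS_UC, 209, 252, 224 and 247 CPM in UC, and 239.7, 297, 571 and 405 CPM in AKI. AKI replicate 3 was the highest of the 12 libraries, AKI replicate 1 lay within the range of UC, and the UC libraries were closest together. The change on the log2 scale was -0.70 (SE 0.25, adjusted p = 0.0316 by edgeR) in UC against AKI and -0.53 (SE 0.25, adjusted p = 0.0952) in pFUS_UC against AKI. The UC call was lost in 8 of 19 alternatives: it was -0.43 without AKI replicate 3, -0.67 without AKI replicate 4, -0.66 without UC replicate 1, -0.68 without UC replicate 3 and -0.39 with offsets for gene length and GC content. Without AKI replicate 1 the change in pFUS_UC was -0.70 and passed.

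The receptor gene Agtr1a (ENSMUSG00000049115, chr13:30520424-30566850 on the plus strand), which carries the vasoconstrictor and sodium-retaining actions of angiotensin II, was lower in both cell-treated groups than in AKI. Agtr1a had 21.4, 25.4, 22.6 and 22.0 CPM in pFUS_UC, 20.5, 21.4, 14.5 and 23.3 CPM in UC, and 41.9, 45.4, 49.98 and 41.1 CPM in AKI. Every pFUS_UC and UC library lay below every AKI library, and pFUS_UC and UC overlapped. The log2 fold change was -0.96 (SE 0.14, adjusted p = 0.000198 by edgeR) in pFUS_UC against AKI, 1.95-fold lower. In UC against AKI it was -1.16 (SE 0.14, adjusted p = 4.95e-05 by edgeR), 2.24-fold lower. Both calls held in all 19 alternatives, with log2 fold changes of -1.13 to -0.89 in pFUS_UC and -1.29 to -1.04 in UC.

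Enpep (ENSMUSG00000028024, chr3:129062824-129126369 on the minus strand), the aminopeptidase that turns angiotensin II into angiotensin III, showed the same order. Enpep had 80.3, 64.4, 50.7 and 84.3 CPM in pFUS_UC, 60.6, 73.2, 45.8 and 50.2 CPM in UC, and 131, 159, 125 and 121 CPM in AKI. The pFUS_UC and UC libraries overlapped and lay below every AKI library. Relative to AKI, Enpep was at a log2 fold change of -0.94 (SE 0.18, adjusted p = 0.00111 by edgeR) in pFUS_UC, 1.92-fold lower, and -1.22 (SE 0.18, adjusted p = 0.000162) in UC, 2.34-fold lower. Both calls held in all 19 alternatives.

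Anpep (ENSMUSG00000039062, chr7:79471551-79510807 on the minus strand), which acts on angiotensin III and many other peptides, was lower in both groups than in AKI, with overlap. Anpep had 205, 158, 226 and 209 CPM in pFUS_UC, 139, 244, 161 and 166 CPM in UC, and 221, 272, 316 and 325 CPM in AKI. AKI replicate 1 lay below pFUS_UC replicate 3 and UC replicate 2, and the other AKI libraries were above all others. A log2 fold change of -0.67 (SE 0.18, adjusted p = 0.00801 by edgeR) was found in UC against AKI, and it passed in all 19 alternatives. In pFUS_UC against AKI it was -0.51 (SE 0.18, adjusted p = 0.0364 by edgeR), lost in 9 of 19. It did not pass without AKI replicate 2 (-0.53), 3 (-0.45) or 4 (-0.44), without pFUS_UC replicate 1 (-0.52), 2 (-0.41) or 4 (-0.53), or with length and GC offsets (-0.35).

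Mme (ENSMUSG00000027820, chr3:63148958-63293451 on the plus strand) encodes neprilysin, which also degrades natriuretic peptides and bradykinin, and it did not pass against AKI. Mme had 229.8, 197, 250.3 and 282 CPM in pFUS_UC, 164, 226, 144 and 193 CPM in UC, and 257, 179, 233 and 235 CPM in AKI. The highest library was pFUS_UC replicate 4 and the lowest UC replicate 3, and all groups overlapped. Its log2 fold change was 0.09 (SE 0.16, adjusted p = 0.689 by edgeR) in pFUS_UC against AKI and -0.31 (SE 0.16, adjusted p = 0.125) in UC against AKI. The UC value passed in 3 alternatives, at -0.44 with library totals in place of TMM, -0.58 with length and GC offsets and -0.44 without UC replicate 2.

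Of the 7 members, 2 in pFUS_UC and 3 in UC had no overlap with AKI, beside 40.8% and 41.7% of all tested genes without overlap in the same comparisons. The members that did not overlap were Agtr1a and Enpep in both, and Ren1 in UC.

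**Figure D3:**
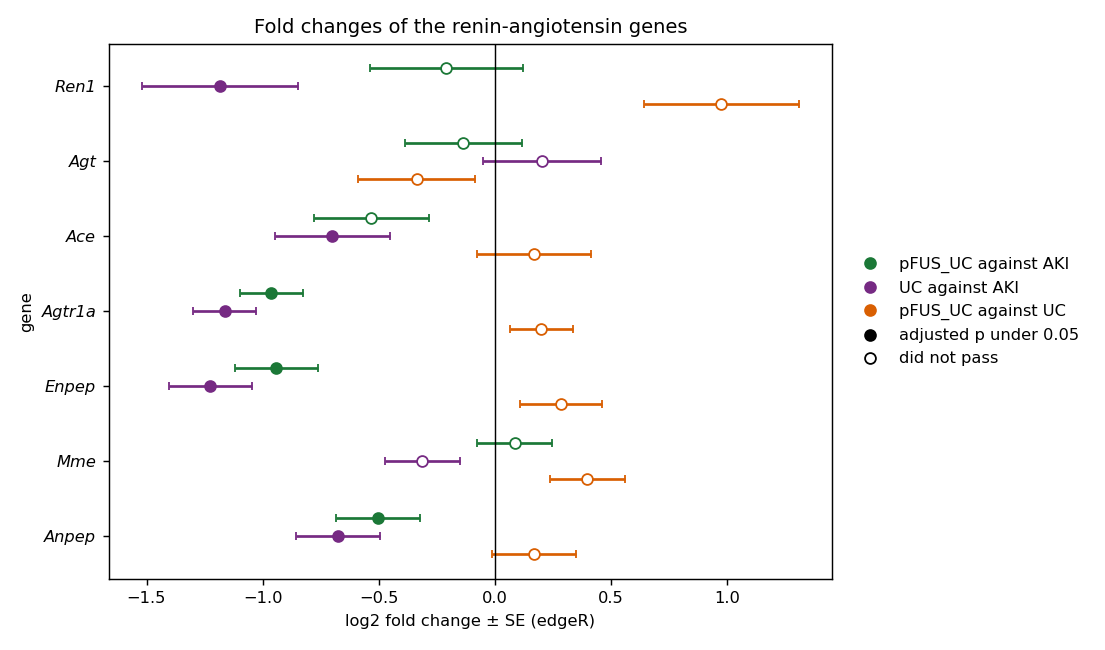
Log2 fold change ± SE of each member by edgeR in pFUS_UC against AKI, UC against AKI and pFUS_UC against UC, from top to bottom within each gene; filled points passed an adjusted p of 0.05. Agtr1a and Enpep lie between -1.22 and -0.94 against AKI, and no member passed in pFUS_UC against UC.

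Adding ultrasound to the cells gave no called member. Called genes made up 0% of tested genes in either direction in pFUS_UC against UC by edgeR, beside 1342 genes with an unadjusted p under 0.05, and DESeq2 called 44 of all genes and no member. Members with an unadjusted p under 0.05 were Ren1, higher in pFUS_UC at 69.8 ± 22.0 CPM against 35.5 ± 16.4 CPM in UC (SD, n = 4 each), and Mme, at 239.7 ± 35.9 CPM in pFUS_UC against 182 ± 35.9 CPM in UC. The log2 fold change of Ren1 was 0.97 (SE 0.33, unadjusted p = 0.0117, adjusted p = 0.597 by edgeR) and that of Mme 0.40 (SE 0.16, unadjusted p = 0.0277, adjusted p = 0.608 by edgeR). For Ren1, 3 of 4 pFUS_UC libraries lay above every UC library. The other members had log2 fold changes of -0.34 (Agt) to 0.28 (Enpep), with adjusted p-values of 0.708 to 0.899. No member was free of overlap between these groups, beside 3.9% of all tested genes without overlap.

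Among 18 other genes of the pathway, 11 were tested. In pFUS_UC against AKI 1 rose and 3 fell, beside 21.9% higher and 22.1% lower of all tested genes. In UC against AKI 1 rose and 5 fell, beside 24.1% higher and 24.3% lower, but with offsets for gene length and GC content 2 rose and 1 fell. The pFUS_UC calls were 1 in each direction without AKI replicate 2, pFUS_UC replicate 2 or pFUS_UC replicate 3, and without AKI replicate 3 the UC calls were 1 higher and 2 lower. Median log2 fold changes were -0.31 in pFUS_UC and -0.33 in UC. Agtrap, whose product binds the type 1 receptor and promotes its uptake, fell in both: it averaged 98.7 ± 2.77 CPM in pFUS_UC and 106 ± 6.46 CPM in UC, against 145 ± 33.3 CPM in AKI (SD, n = 4 each). Its log2 fold change was -0.55 (adjusted p = 0.00649 by edgeR) in pFUS_UC and -0.44 (adjusted p = 0.0181) in UC, and the UC call was lost without AKI replicate 3 (-0.36) or 4 (-0.34), or with length and GC offsets (-0.27).

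Peptidases that act on angiotensins moved in both directions. Lnpep, the insulin-regulated aminopeptidase that binds angiotensin IV, fell by 0.42 in pFUS_UC (adjusted p = 0.0390 by edgeR) and by 0.54 in UC (adjusted p = 0.0105) on the log2 scale. The pFUS_UC call of Lnpep was lost without AKI replicate 1 (-0.30) or 2 (-0.43), or without pFUS_UC replicate 2 (-0.41), 3 (-0.31) or 4 (-0.41). Nln, neurolysin, fell by 0.31 in pFUS_UC (adjusted p = 0.0436) and by 0.45 in UC (adjusted p = 0.00665), the pFUS_UC call being lost in 14 of 19 alternatives and the UC call with length and GC offsets (-0.18). The pFUS_UC losses include leaving out AKI replicate 2 (-0.28) or 4 (-0.26) and pFUS_UC replicate 2 (-0.28), 3 (-0.25) or 4 (-0.31).

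Prep, prolyl endopeptidase, and Rnpep, aminopeptidase B, passed in UC, and neither passed in pFUS_UC, at -0.54 and -0.30; whether the groups differ is covered by pFUS_UC against UC, where neither passed. In UC, Prep was at -0.72 (adjusted p = 0.0194 by edgeR), and it did not pass when UC replicate 1 (-0.65), UC replicate 2 (-0.62) or AKI replicate 3 (-0.57) was left out, or with length and GC offsets (-0.39). Rnpep was at -0.37 in UC (adjusted p = 0.0462 by edgeR), lost in 11 of 19 alternatives and turned to 0.04 with length and GC offsets. Leaving out AKI replicate 2 (-0.35), 3 (-0.34) or 4 (-0.36), or UC replicate 1 (-0.32), 2 (-0.31) or 4 (-0.36), also ended the Rnpep call. Thop1, thimet oligopeptidase, which can cut angiotensin I, rose by 0.42 in UC (adjusted p = 0.0161 by edgeR), a call lost without AKI replicate 2 (0.33) or UC replicate 1 (0.37), with library totals in place of TMM (0.30) or with no filter (0.37). In pFUS_UC Thop1 was at 0.17 and did not pass, while with length and GC offsets it was at 0.48 and passed (adjusted p = 0.0110 by edgeR); the same offsets put the UC value at 0.73.

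Klk1, tissue kallikrein, which releases kinins and can act on prorenin, rose in pFUS_UC. Klk1 averaged 1750.7 ± 491 CPM in pFUS_UC and 1309 ± 487 CPM in UC, against 846 ± 245 CPM in AKI (SD, n = 4 each). The log2 fold change was 1.05 (adjusted p = 0.0091 by edgeR) in pFUS_UC and 0.63 (adjusted p = 0.0782) in UC; the pFUS_UC call was lost with length and GC offsets (0.64) and when AKI replicate 3 and pFUS_UC replicate 4 were left out together (0.73). The UC value passed in 5 alternatives, with DESeq2 (0.63, adjusted p = 0.0438), the replicate block (0.61, adjusted p = 0.0273 by edgeR), and on leaving out UC replicate 1 (0.78), UC replicate 3 (0.77) or AKI replicate 4 (0.85), and was at 0.24 with length and GC offsets. Klk1 belongs to a family of near-identical kallikrein genes, so reads shared between them make its value uncertain.

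**Figure D4:**
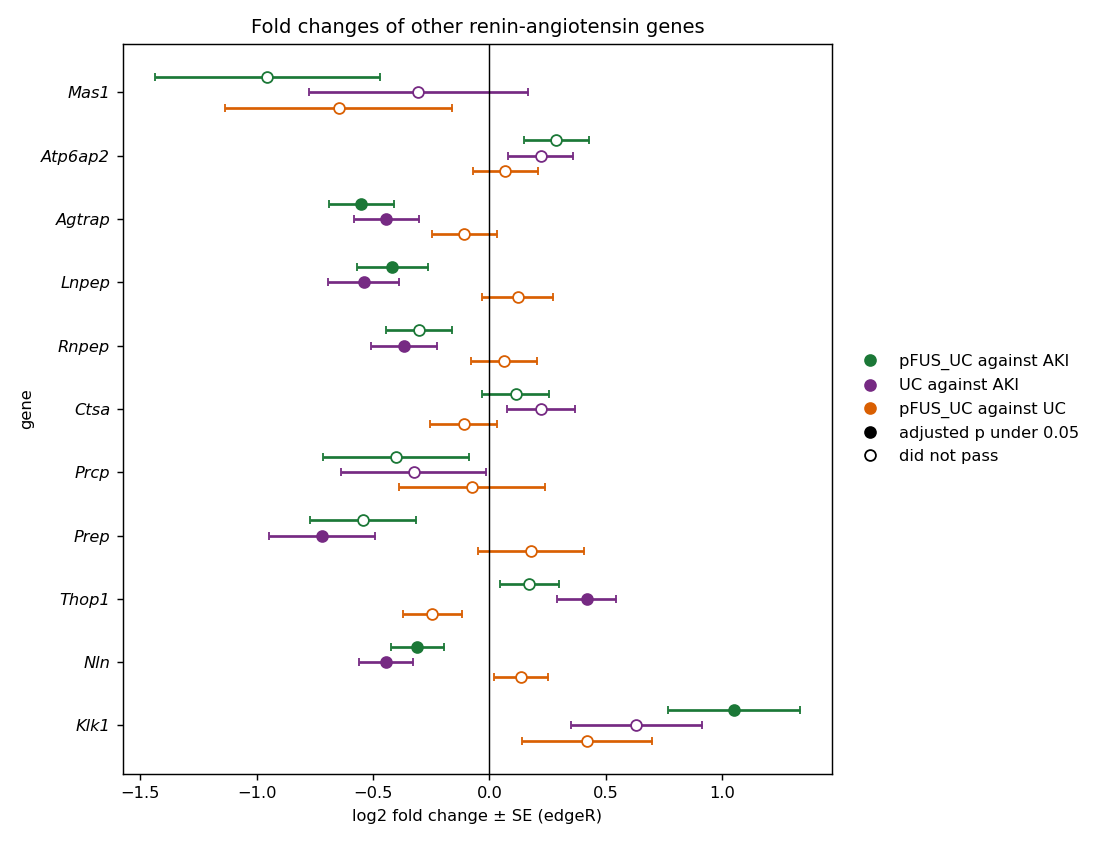
Log2 fold change ± SE by edgeR of the 11 tested genes of the wider pathway, with pFUS_UC against AKI on top, UC against AKI in the middle and pFUS_UC against UC below within each gene; filled points passed an adjusted p of 0.05. Agtrap, Lnpep and Nln passed below 0 in both comparisons with AKI, and Klk1 passed above 0 in pFUS_UC.

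Of the other receptors, Agtr1b and Agtr2 were near the detection limit. Agtr1b, the second mouse type 1 receptor gene, had 2 counts over all pFUS_UC libraries, 1 over UC and 3 over AKI, and Agtr2, the type 2 receptor, had 5, 4 and 9, so neither was tested. Mas1 had 0.652 ± 0.174 CPM in pFUS_UC, 1.02 ± 0.607 in UC and 1.27 ± 0.646 in AKI (SD, n = 4 each) and did not pass. Atp6ap2, the prorenin receptor and a proton pump subunit, averaged 92.8 ± 11.5 CPM in pFUS_UC and 88.6 ± 11.4 in UC, against 76.0 ± 13.0 in AKI, and did not pass (adjusted p = 0.111 and 0.208 by edgeR). Atp6ap2 passed in pFUS_UC with the replicate block (0.29, adjusted p = 0.0499 by edgeR) and without AKI replicate 1 (0.40), and had the opposite sign in both groups with length and GC offsets (-0.25 and -0.28).

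Of 17 genes that control renin release, 1 rose and 8 fell in pFUS_UC against AKI, and none rose and 7 fell in UC against AKI. Among all tested genes the shares were 21.9% higher and 22.1% lower in pFUS_UC, and 24.1% higher and 24.3% lower in UC. The 9 calls in pFUS_UC were 5 with the replicate block, with length and GC offsets, or without AKI replicate 1, pFUS_UC replicate 2 or pFUS_UC replicate 3, and 4 without pFUS_UC replicate 4. The genes with the smallest p were the same in both: Gnas, the stimulatory G protein alpha subunit, Pde3a, a phosphodiesterase that degrades cyclic AMP, and Adcy5, an adenylyl cyclase. Gnas averaged 38.0 ± 12.5 CPM in pFUS_UC and 30.8 ± 10.03 CPM in UC, against 105 ± 13.7 CPM in AKI (SD, n = 4 each), with log2 fold changes of -1.47 and -1.77 (adjusted p = 0.000478 and 0.000113 by edgeR). Pde3a was at -1.41 and -1.90 and Adcy5 at -0.98 and -1.23. With limma on log2(FPKM + 1), a scale that understates the change of low genes, Pde3a was at -0.57 and -0.70 and Adcy5 at -0.53 and -0.64. With length and GC offsets Gnas was at -0.97 in pFUS_UC, and all 3 passed in both groups in all 19 alternatives. In pFUS_UC against UC no gene of this list passed, the smallest p being that of Nr1h3, the liver X receptor alpha, at -0.22 (adjusted p = 0.687).

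Among 19 effectors of angiotensin II and aldosterone, 3 rose and 4 fell in pFUS_UC, and 3 rose and 5 fell in UC. These counts were near the shares of all tested genes, 21.9% higher and 22.1% lower in pFUS_UC, and 24.1% higher and 24.3% lower in UC. The smallest p in both belonged to Arrb1 (beta-arrestin), Gnaq (the Gq alpha subunit coupled to the type 1 receptor) and Ccn2 (connective tissue growth factor). Arrb1 was at -1.04 and -1.28 in pFUS_UC and UC, Gnaq at -0.98 and -1.18, and Ccn2 at -1.47 and -1.54 on the log2 scale, with Arrb1 at -0.59 and -0.80 under length and GC offsets. Ccn2 averaged 43.4 ± 15.5 CPM in pFUS_UC and 41.3 ± 8.97 CPM in UC, against 119.9 ± 32.9 CPM in AKI (SD, n = 4 each). In pFUS_UC against UC none passed, with Rcan1, a calcineurin inhibitor, at -1.17 (adjusted p = 0.591 by edgeR) the nearest.

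Of 15 other brush border peptidases and anchors, 1 rose and 4 fell in pFUS_UC and 1 rose and 7 fell in UC. Beside them, 21.9% of all tested genes were higher and 22.1% lower in pFUS_UC, and 24.1% higher and 24.3% lower in UC. DESeq2 called 1 higher and 7 lower of the list in pFUS_UC. Vil1, villin, fell by 0.61 in pFUS_UC and by 0.60 in UC, and Dpp4 fell by 0.51 and by 0.66. Pdzk1, a scaffold of apical transporters, fell by 1.59 in UC (adjusted p = 0.000432 by edgeR) and was at -0.94 in pFUS_UC (adjusted p = 0.0124). Cltrn, collectrin, which chaperones amino acid transporters, rose in both groups. Its log2 fold change was 1.06 in pFUS_UC (adjusted p = 0.000961 by edgeR) and 0.74 in UC (adjusted p = 0.00655). The pFUS_UC value was 0.27 and did not pass with length and GC offsets. None passed in pFUS_UC against UC, where Xpnpep2 was nearest at 0.57 (adjusted p = 0.601 by edgeR).

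Markers of the cells known to express the members are given beside them. For the marker counts here and below, the shares of all tested genes were 21.9% higher and 22.1% lower in pFUS_UC against AKI. In UC against AKI these shares were 24.1% higher and 24.3% lower. Of 13 proximal tubule markers, 1 rose and 6 fell in pFUS_UC and 1 rose and 7 fell in UC, with medians of -0.27 and -0.63 on the log2 scale. Their summed level was 15664 to 30446 CPM in pFUS_UC, 10766 to 21967 in UC and 14014 to 19913 in AKI, with Kap supplying 44.6% of it in pFUS_UC and 34.4% in UC. Enpep was also set against the mean log2 level of these 13 markers in the same library. Enpep lay at -2.43, -2.43, -3.07 and -2.65 in pFUS_UC and -2.65, -2.58, -2.44 and -3.02 in UC, against -1.86, -1.60, -2.22 and -2.13 in AKI. The difference from AKI was -0.69 in pFUS_UC and -0.72 in UC, without overlap, with a 2-sided exact permutation p of 0.0286 each, the smallest possible; adjusted over 18 tests it was 0.257 and did not pass. Against the median of the markers in place of their mean, the differences were -0.54 and -0.60 with an exact permutation p of 0.0857 and 0.0571. For Agt, Ace, Mme and Anpep the same differences ran from -0.24 to 0.68 and none passed (exact permutation p of 0.0857 or above). Against the median of the markers Agt in UC was higher than in AKI by 0.80, with an exact permutation p of 0.0286, not adjusted.

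For the renal vessels, of 9 smooth muscle, pericyte and mesangial markers 2 rose and 4 fell in pFUS_UC and 1 rose and 5 fell in UC. Their sum was 205 to 289 CPM in pFUS_UC and 194 to 239 CPM in UC, against 259 to 404 CPM in AKI, where Pdgfrb supplied 29.2% of it. The list was mixed: Pdgfrb, Notch3, Cspg4 and Itga8 fell in both groups and Tagln in UC, while Rgs5 rose in both and Cnn1 in pFUS_UC. Acta2 and Myh11 passed in neither comparison with AKI. Ren1 relative to the mean log2 level of these 9 markers differed from AKI by 0.20 in pFUS_UC and by -0.59 in UC (2-sided exact permutation p = 0.486 and 0.2). Podocyte markers fell in 6 of 6 in both groups, endothelial markers in 6 of 7 in pFUS_UC and 7 of 7 in UC, and fibroblast markers in 5 of 6 and 6 of 6. The summed podocyte level was 192 to 297 CPM in pFUS_UC and 125 to 255 CPM in UC, against 664 to 1022 CPM in AKI. The endothelial sum was 238 to 321 CPM in pFUS_UC and 129 to 307 CPM in UC, against 544 to 939 CPM in AKI. The fibroblast sum was 121 to 153 CPM in pFUS_UC and 54.7 to 149 CPM in UC, against 236 to 590.0 CPM in AKI. These types include cells known to express Agtr1a, and their part in its lower level was not tested.

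**Figure D5:**
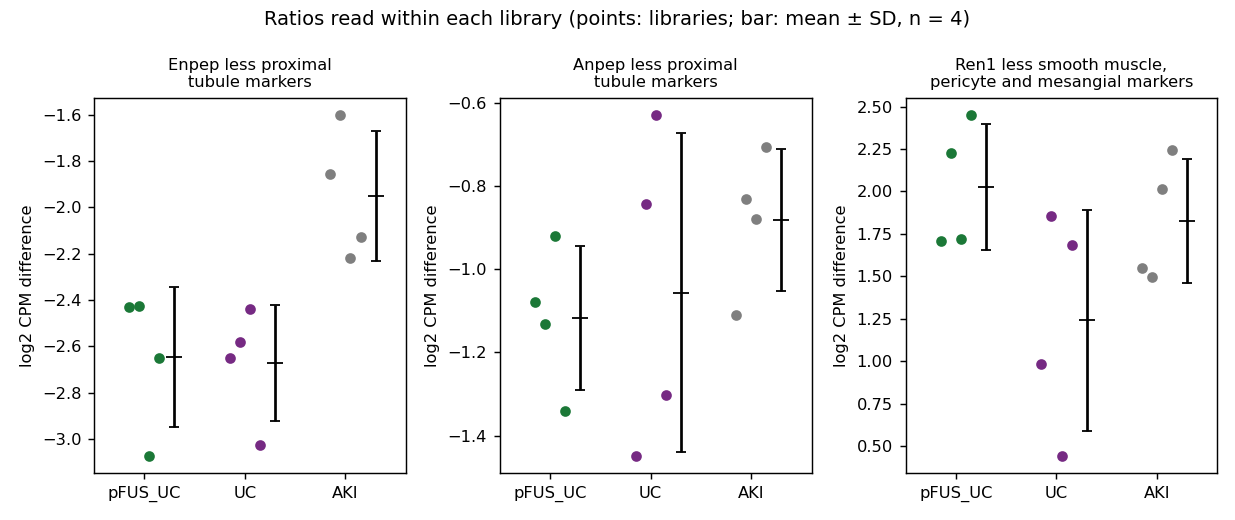
Ratios within each library, with pFUS_UC left, UC in the middle and AKI right in each panel; points are libraries and bars the mean ± SD of 4. Enpep relative to the mean of proximal tubule markers lies lower in every pFUS_UC and UC library than in AKI, while Anpep relative to the same markers and Ren1 relative to vessel wall markers overlap.

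Markers of tissues and cells outside the nephron were summed as well. Adrenal cortex markers summed to 2.595 to 6.45 CPM over all libraries, nearly all from Star, and Cyp11b1 and Cyp11b2, the enzymes that define that tissue, had no count in any group. Hepatocyte markers, from the main source of circulating angiotensinogen, summed to 16.8 to 86.0 CPM in pFUS_UC and 7.71 to 16.1 CPM in UC, against 6.34 to 11.8 CPM in AKI, and 2 of 5 tested rose in pFUS_UC, or 1 with DESeq2, with the replicate block, or when pFUS_UC replicate 4 or any of AKI replicates 2, 3 and 4 was left out. Adipocyte markers summed to 85.0 to 163 CPM in pFUS_UC and 42.6 to 80.1 CPM in UC, against 74.3 to 112 CPM in AKI, and 1 of 7 rose in pFUS_UC while 3 of 7 fell in UC. Mast cell markers summed to 29.7 to 343 CPM in pFUS_UC and 89.1 to 339 CPM in UC, against 89.0 to 203 CPM in AKI. Hdc supplied 91.5% of that sum in pFUS_UC, 94.4% in UC and 88.1% in AKI, so it mostly gives the level of Hdc. Fcer1a of the same list had no count in any group, and Cpa3 averaged 0.012 CPM in pFUS_UC, 0.023 in UC and 0.024 in AKI. Of 3 mast cell markers tested, 1 rose in pFUS_UC and 1 fell in UC. Neither call was kept with length and GC offsets or without AKI replicate 4. The pFUS_UC call was also lost with the replicate block, or when AKI replicate 1 or 2 or pFUS_UC replicate 2, 3 or 4 was left out. Mast cell chymase (Cma1), too low to be tested, had no count in the UC libraries and averaged 0.046 CPM in pFUS_UC and 0.144 CPM in AKI. Macula densa and thick ascending limb markers, taken as 1 list, fell in 1 of 6 in pFUS_UC and 2 of 6 in UC. They summed to 1795 to 3026 CPM in pFUS_UC and 1119 to 3055 CPM in UC, against 3633 to 5790.0 CPM in AKI. Umod supplied 53.4% of that sum in pFUS_UC and 45.2% in UC, against 69.96% in AKI. It was the gene that passed in pFUS_UC, a call lost without pFUS_UC replicate 3. Slc12a1, Cldn10 and Kcnj1 did not pass, at -0.53, 0.06 and 0.05 in pFUS_UC and -0.52, -0.37 and -0.13 in UC on the log2 scale. The macula densa gene Ptgs2 averaged 0.748 ± 0.903 CPM in pFUS_UC and 0.868 ± 0.235 CPM in UC, against 1.62 ± 0.353 CPM in AKI (SD, n = 4 each). Ptgs2 did not pass (adjusted p = 0.246 and 0.329 by edgeR). Nos1, also of the macula densa, averaged 0.428 ± 0.201 CPM in pFUS_UC and 0.233 ± 0.143 CPM in UC, against 1.08 ± 0.777 CPM in AKI. Its UC mean stood little above the level of 3 counts in a UC library, 0.141 to 0.163 CPM. Nos1 passed in UC (-2.18, adjusted p = 0.00847 by edgeR) and not in pFUS_UC. Leukocyte markers fell in 1 of 4 tested in each group, and in none in pFUS_UC when replicate 2 or 4 of either pFUS_UC or AKI was left out. Blood markers, led by Hba-a1, summed to 3.03 to 572 CPM in pFUS_UC, with a mean of 145 ± 284 CPM (SD, n = 4). Their sum was 1.10 to 40.6 CPM in UC and 3.97 to 13.8 CPM in AKI. Of 3 tested, 2 passed as higher in pFUS_UC, but none did with DESeq2, the replicate block or length and GC offsets, or when pFUS_UC replicate 4 or any of AKI replicates 2, 3 and 4 was left out. Leaving out AKI replicate 1 gave 1, and leaving out pFUS_UC replicate 1 or 3 gave 4, over the genes tested then.

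The genes with the most similar pattern to each member were sought among 14170 protein-coding genes by Pearson's r of log2 CPM over the 12 libraries, given with r after removing group means. All 12 libraries share the 3 groups and their depth, and these values are descriptions without a test. Agtr1a was closest to Nphs1, the podocyte slit diaphragm gene nephrin (0.98, and 0.79 within groups), and Myom2 (0.98 and 0.87). Enpep was closest to Sos2 (0.98 and 0.91) and Zfp704 (0.98 and 0.89). Ren1 was closest to Ugt3a2 (0.95 and 0.88) and Sqor (0.93 and 0.87), and Ace to Aplp2 (0.95 and 0.93) and Nmt1 (0.92 and 0.89). Anpep was closest to Amt (0.96 and 0.92) and Plrg1 (0.95 and 0.88), Mme to Pcca (0.91 and 0.87) and Hsd3b4 (0.90 and 0.89), and Agt to Slc6a13 (0.86 and 0.85) and Tmem214 (0.80 and 0.79). Among the members themselves, within-group r was 0.71 for Ren1 and Agtr1a, 0.65 for Ren1 and Ace and 0.63 for Ace and Anpep. Agtr1a and Enpep, both without overlap with AKI, had a within-group r of 0.21.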

How the data were processed

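The authors deposited raw counts per gene for 12 kidney libraries, and FPKM values for the same libraries. HTSeq, DESeq2 and build GRCm39 (mm39) are named per the submitters' processing notes, with no versions; the aligner, strand setting and annotation release were not stated there. The deposited FPKM values were used for levels between genes.

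A single fit of edgeR 4.0.16 (R 4.3.3) held all 12 libraries. Genes were filtered with filterByExpr (minimum count 10, minimum total 15), scaled by TMM and tested by the quasi-likelihood F-test, with Benjamini-Hochberg adjustment over 16947 genes and a threshold of 0.05. Standard errors came from dividing the size of each log2 fold change by the root of its F statistic. CPM values are counts per mega of library total scaled by TMM, and log2 CPM used a prior count of 2. Within-library ratios were compared by 2-sided exact permutation tests (scipy 1.17.1), adjusted over 18. The fit was tested on simulated data.

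The members and the 16 gene lists were chosen with earlier results of these data known. Named genes are the members, 5 fixed genes of the wider pathway and those of it that passed, the 3 of smallest p in each other pathway list, and the 2 most alike genes per member. Alternatives were DESeq2 1.42.0, its size factors, library totals, other filters, fits of the groups compared, a replicate block, offsets for length and GC content (98.1% of tested genes had a GC value, matched by identifier to GENCODE M21 on GRCm38), limma 3.58.1 on FPKM, and leaving out each library; 2 sets of libraries left out together were chosen after seeing the data. Same-numbered replicates were correlated at -0.165 to 0.147 and were not treated as pairs. Files carry no other samples' columns. A gene of the wider pathway, with the ratio that used it, is not reported here.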

Additional observations from a re-analysis of the deposited data

How the results depend on the processing

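Agtr1a and Enpep against AKI, and Ren1 and Anpep in UC against AKI, stayed past the threshold with the same direction in all 19 alternatives each. The calls of Ace in UC (8 of 19 lost) and Anpep in pFUS_UC (9 of 19 lost) did not, and the cause was not tested. The numbers of members called ran from 2 to 4 in pFUS_UC against AKI and from 4 to 6 in UC against AKI when single libraries were left out, and remained 0 in pFUS_UC against UC in all alternatives. With the replicate block 3, 5 and 0 members were called in pFUS_UC against AKI, UC against AKI and pFUS_UC against UC; the block ended the Anpep call in pFUS_UC (-0.49, adjusted p = 0.0580 by edgeR) and made that of Ace in pFUS_UC (-0.51, adjusted p = 0.0485).

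Over all genes, 5414 were called in UC against AKI without UC replicates 1 and 2, against 8210 with them. In pFUS_UC against UC, DESeq2 called 44 genes, no filter 13 and the replicate block 2, and leaving out single libraries gave 0 to 1. Of the wider pathway genes, 3 passed with length and GC offsets in UC against AKI (2 higher and 1 lower, against 1 higher and 5 lower without them), and leaving out single libraries gave 3 to 7 there and 2 to 5 in pFUS_UC against AKI.

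Reversed signs were seen for values that did not pass, with the exception of Rnpep in UC against AKI, which turned to 0.039 with length and GC offsets. With these offsets Atp6ap2 was at -0.28 in UC against AKI, and Mme at -0.23, Atp6ap2 at -0.25 and Rnpep at 0.082 in pFUS_UC against AKI. Mme in pFUS_UC against AKI was also at -0.00086 with library totals. Without UC replicates 1 and 2, Agt was at -0.045 and Mas1 at 0.055 in UC against AKI, and Rnpep at -0.094 and Prep at -0.069 in pFUS_UC against UC. Ace relative to the median of the proximal tubule markers was at 0.010 in UC against AKI, against -0.11 with their mean. Leaving out single libraries gave -0.041 to 0.30 for Agt and -0.74 to 0.077 for Mas1 in UC against AKI. In pFUS_UC against AKI it gave -0.31 to 0.063 for Agt and -0.016 to 0.17 for Mme. In pFUS_UC against UC it gave -0.015 to 0.15 for Atp6ap2, -0.0099 to 0.23 for Lnpep and -0.010 to 0.20 for Rnpep. Library totals in place of TMM moved the median of all genes to -0.06 in pFUS_UC against AKI and -0.09 in UC against AKI, beside 0.02 and 0.03. Agtr1b and Agtr2 were too low for any test at this depth.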
